A study of Mus musculus with 30 samples.

Results

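The genes described here are 10 mouse genes of the p53 response and of growth arrest: Mdm2, Cdkn1a, Ccng1, Sesn1, Phlda3, Gadd45a, Gadd45b, Gadd45g, Btg1 and Btg2. They are named one by one with no threshold on their values, in a choice made with earlier results of these data known, and all 10 were found among the 26266 named genes of the young table and the 22781 of the aged table. Expression was measured by RNA-seq of splenic B cells and given as TPM, a transcript level per length that is scaled to the same total in every library. All mice were C57BL/6, and B cells were taken from dissociated spleens by magnetic selection. Young mice, labelled as 3 months old (2 to 3 months in the protocol), were homozygous for the Ikzf3-L161R knock-in (Ikzf3 fl/fl, n = 3 libraries) or wild-type (n = 3). Aged mice of 15 to 18 months gave CLL cells (n = 5), non-CLL B cells (n = 4) and wild-type B cells (n = 3). CLL cells were sorted as B220+CD5+ from leukaemic mice. CLL libraries 1, 2, 4 and 5 and non-CLL libraries 2, 4 and 5 are heterozygous (Ikzf3 fl/+), and both libraries numbered 6 are homozygous (Ikzf3 fl/fl). The mutation is restricted to B cells, and per the design text CLL and non-CLL cells come from the same mice. The labels of the sources used here do not say which Cre drives the knock-in, nor that each young library comes from a separate animal, so the p-values measure the spread between these libraries.

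p53 is a transcription factor that is held at a low level by MDM2, the ubiquitin ligase that it switches on itself, so the pair forms a feedback loop. After DNA damage p53 activates genes that stop the cell cycle, repair DNA or start apoptosis. In resting B and T cells the antiproliferative genes BTG1 and BTG2, which recruit the CCR4-NOT deadenylase complex to messenger RNAs, are abundant and are linked to quiescence, and BTG1 is recurrently mutated in B cell lymphoma. FOXO factors also switch on SESN1 and other genes of resting lymphocytes. Ikzf3 encodes Aiolos, an Ikaros-family zinc finger factor of B cells.

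Of the 9 members that could be tested in young mice, 3 rose in homozygous B cells: Mdm2, Sesn1 and Btg1. Their upstream sequences are shown here because these members moved together, and that of Cdkn1a because it is the classical p53 target and did not pass the test. Each is the 250 bases before an annotated transcript start, from RefSeq on GRCm38.p6, written 5′ to 3′ on the strand of the gene; Sesn1 has 2 annotated starts and the first of 2 Cdkn1a starts is shown. Capitals mark matches, on either strand, to any of 9 motifs, among them a p53 half-site, the FOXO site TGTTTAC, the Ikaros core TGGGAA and a TATA box (TATAAA). No match overlaps another.
Mdm2 (chr10:117710759-117711008, minus strand): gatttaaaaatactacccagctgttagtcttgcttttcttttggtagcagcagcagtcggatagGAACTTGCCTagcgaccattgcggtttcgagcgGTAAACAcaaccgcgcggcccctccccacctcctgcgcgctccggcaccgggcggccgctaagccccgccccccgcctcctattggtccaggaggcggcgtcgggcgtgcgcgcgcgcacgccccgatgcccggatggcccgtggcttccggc
Sesn1 start 1 (chr10:41810324-41810573, plus strand): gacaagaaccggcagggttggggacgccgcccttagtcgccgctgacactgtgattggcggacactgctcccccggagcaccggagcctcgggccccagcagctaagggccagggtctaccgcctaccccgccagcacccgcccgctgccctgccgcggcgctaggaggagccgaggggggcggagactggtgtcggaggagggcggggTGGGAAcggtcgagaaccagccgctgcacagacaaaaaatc
Sesn1 start 2 (chr10:41887189-41887438, plus strand): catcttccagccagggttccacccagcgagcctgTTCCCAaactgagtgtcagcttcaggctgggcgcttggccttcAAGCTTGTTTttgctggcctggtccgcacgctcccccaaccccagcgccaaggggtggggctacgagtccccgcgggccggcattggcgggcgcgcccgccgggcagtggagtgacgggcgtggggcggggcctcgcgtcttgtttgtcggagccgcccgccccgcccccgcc
Btg1 (chr10:96616751-96617000, plus strand): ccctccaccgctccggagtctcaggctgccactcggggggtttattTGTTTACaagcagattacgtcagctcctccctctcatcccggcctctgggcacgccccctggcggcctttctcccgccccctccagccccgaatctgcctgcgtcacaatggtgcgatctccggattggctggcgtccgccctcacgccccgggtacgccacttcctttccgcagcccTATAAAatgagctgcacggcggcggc
Cdkn1a start 1 (chr17:29090729-29090978, plus strand): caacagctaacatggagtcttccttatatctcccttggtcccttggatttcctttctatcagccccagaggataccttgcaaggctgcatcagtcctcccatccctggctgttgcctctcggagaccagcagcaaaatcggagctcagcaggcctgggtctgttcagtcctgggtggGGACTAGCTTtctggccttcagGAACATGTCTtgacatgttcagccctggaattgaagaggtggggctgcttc

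Motifs were searched in windows that run 250 bases before to 50 bases after each of the 12 member starts. A p53 half-site lay in 5 of the 12 member windows, against 8.36% of all 32851 RefSeq windows. It began 186 bases before the start of Mdm2, 185 before that of Ccng1, 173 before start 2 of Sesn1, 40 before that of Gadd45a, and 73 and 51 bases before start 1 of Cdkn1a. TGTTTAC was found in 3 member windows, against 3.65% of all windows. These were the windows of the 3 members that rose in young homozygous cells: it began 153 bases before the start of Mdm2 (on the other strand), 204 before that of Btg1, and at base 23 after start 1 of Sesn1. Btg2 held a cyclic AMP response element, TGACGTCA, 166 bases before its start (1.79% of all windows), and TGGGAA lay in 5 member windows, of Cdkn1a, Sesn1, Gadd45g and Btg2 (25.6% of all windows). TATAAA was present upstream of Gadd45b, Gadd45g and Btg1 (13.6% of all windows), and the heat shock pair GAANNTTC in the window of Sesn1 start 1 (7.86%). The AP-1 site TGANTCA (7.81%), the CArG box (1.63%) and the kappa-B site (8.46%) matched no member window. These matches are descriptions of letters in the windows, and the motifs were chosen with the expression results known.

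Some libraries stood apart. B cell markers were abundant in every group, with summed levels of 9963 to 10700 TPM in young homozygous libraries, against 9130 to 10750 TPM in young wild-type ones. Young wild-type libraries 1 and 2 differed from the rest by Xist (80.9 and 63.1 TPM, against at most 0.0567 TPM in the other 4) and by the myeloid gene Lyz2 (1443 and 2330 TPM, against 58.2 to 163 TPM in homozygous libraries and 222 TPM in wild-type library 3). Other myeloid genes were high in all 3 wild-type libraries, library 3 included. S100a8 had 310 to 948 TPM there, against 12.2 to 59.1 TPM in homozygous libraries, and S100a9 had 460 to 1447 TPM, against 22.4 to 82.1 TPM. All 3 homozygous libraries and wild-type library 3 expressed the Y-linked Ddx3y. The aged table carries a background in olfactory receptor genes, which B cells are not known to use: their median level was 1.08 to 2.71 TPM in CLL libraries 1, 2, 4 and 5, 9.66 TPM in CLL library 6, 7.16 to 9.24 TPM in the non-CLL libraries and 0 to 0.745 TPM in wild-type libraries. Aged wild-type library 2 had less of the B cell gene Ms4a1 (617 TPM, against 3610 and 3848 TPM in libraries 1 and 3), and the plasmacytoid dendritic cell gene Siglech at 126 TPM (0 and 1.89 TPM in libraries 1 and 3). The sort marker Cd5 was higher in CLL cells than in wild-type cells (22.0 ± 8.45 against 0.725 ± 0.401 TPM, SD, n = 5 and 3). Non-CLL cells also had more Cd5 than wild-type cells, at 8.56 ± 2.57 TPM (SD, n = 4). Ptprc, the gene of the sort marker B220, was lower in CLL cells than in wild-type cells (506 ± 188 against 1007 ± 158 TPM). The mutation is a missense change, so gene-level TPM cannot check it.

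In young homozygous B cells the main regulator of p53, a stress-response sestrin and the quiescence gene Btg1 were higher than in wild-type B cells, by 1.46- to 1.91-fold, while the arrest gene Cdkn1a and the 3 Gadd45 genes did not pass the test. Groups were compared with limma on log2(TPM + 1), with p-values adjusted over all genes tested, and a gene is called at an adjusted p under 0.05. Of the 9 members tested 3 were called higher, against a background of 38.4% of all genes called higher, and 0 were called lower, against a background of 12.6%. The same 3 were the members whose groups did not overlap, each with all homozygous libraries on top, which held for 44.5% of all genes. A share of this size is near the background, so the count by itself says nothing particular about these genes. The median log2 change was 0.19 for the members and 0.18 for all 12219 genes tested. In bulk samples fewer cells of a type and less RNA per cell cannot be told apart.

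Mdm2, which encodes the ubiquitin ligase that targets p53 for degradation, had 78.0, 87.7 and 89.1 TPM in homozygous libraries, against 56.7, 54.8 and 56.2 TPM in wild-type libraries. Every homozygous library lay above every wild-type library, with a log2 change of 0.59 (SE 0.08, adjusted p = 0.000644). Sesn1, a sestrin that restrains growth signalling through mTORC1 and is a target of p53 and of FOXO factors, had 95.2, 110 and 108 TPM in homozygous libraries, against 72.3, 66.1 and 75.3 TPM in wild-type libraries. These groups did not overlap either, and the log2 change was 0.54 (SE 0.09, adjusted p = 0.00132).

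Btg1, the antiproliferative gene, was the most abundant member in young B cells, above at least 98.7% of genes in each library. Its level was 626, 752 and 753 TPM in homozygous libraries, against 376, 388 and 347 TPM in wild-type libraries. The lowest homozygous library stood well above the highest wild-type library, and the log2 change was 0.93 (SE 0.10, adjusted p = 0.000296). The paralogue Btg2 had 221, 245 and 254 TPM in homozygous libraries, against 202, 203 and 227 TPM in wild-type libraries. One homozygous library lay below the highest wild-type library, and Btg2 did not pass the test (log2 change 0.19, 95% CI -0.01 to 0.39, adjusted p = 0.101). Without wild-type library 3 Btg2 passed (log2 change 0.24, adjusted p = 0.0381).

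Cdkn1a, which encodes the p21 inhibitor of cyclin-dependent kinases, was low in all young libraries. It had 2.62, 2.51 and 2.23 TPM in homozygous libraries, against 4.26, 4.67 and 2.22 TPM in wild-type libraries. The wild-type libraries with Xist and high Lyz2, 1 and 2, were the 2 high ones, and wild-type library 3 matched the homozygous libraries. The log2 change was -0.41 (95% CI -0.90 to 0.09, adjusted p = 0.143). It passed as lower without wild-type library 3 (-0.66, adjusted p = 0.00667) and was 0.10 (adjusted p = 0.788) when wild-type library 3 was the only control; the part of myeloid RNA and of sex in this was not tested.

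Ccng1, a cyclin G that works in the MDM2 feedback, had 48.3, 61.6 and 57.5 TPM in homozygous libraries, against 51.2, 57.2 and 50.2 TPM in wild-type libraries. The groups overlapped (log2 change 0.07, 95% CI -0.16 to 0.31, adjusted p = 0.576). Phlda3, a p53 target that inhibits AKT, stayed at or under 0.589 TPM in all 6 libraries and was not tested. Among the Gadd45 genes, which encode small stress proteins that bind MAP kinase kinase kinases and cyclin B1-CDK1, Gadd45a averaged 23.7 ± 1.32 TPM in homozygous libraries, against 24.1 ± 0.730 TPM in wild-type ones (SD, n = 3 each). Its interval was narrow, with a log2 change between -0.21 and 0.16. Gadd45g averaged 26.8 ± 6.45 TPM in homozygous libraries, against 27.8 ± 2.76 TPM in wild-type ones, with a log2 change of -0.07 (95% CI -0.46 to 0.31). Gadd45b had 74.8, 53.5 and 68.8 TPM in homozygous libraries, against 51.3, 52.6 and 61.7 TPM in wild-type libraries. Its groups overlapped through homozygous library 2, and it passed only when that library was left out (log2 change 0.38 and adjusted p = 0.027, against 0.24 and 0.153 with all libraries).

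The 3 calls in young cells were kept when each library was left out in turn, with log2 changes of 0.56 to 0.65 for Mdm2, 0.49 to 0.61 for Sesn1 and 0.89 to 1.02 for Btg1. They were also kept with wild-type library 3, which shares Ddx3y with the homozygous libraries and has less Lyz2, as the only control: the log2 change was 0.59 for Mdm2 (adjusted p = 0.0161), 0.46 for Sesn1 (0.0333) and 1.03 for Btg1 (0.00319). In that fit the lone control is assumed to vary like the other libraries. That control also held more of the myeloid genes S100a8 and S100a9 than any homozygous library. Scaling each library by its median ratio to the others moved the median of all genes to -0.0016 and turned 4698 higher and 1539 lower genes into 3008 and 2720. On that scale Mdm2 (0.39), Sesn1 (0.34) and Btg1 (0.73) were still called higher, whereas the uncalled changes of Ccng1 (-0.13) and Btg2 (-0.01) changed sign. With no filter on low values 0 members and 5 genes in each direction were called.

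**Figure D1:**
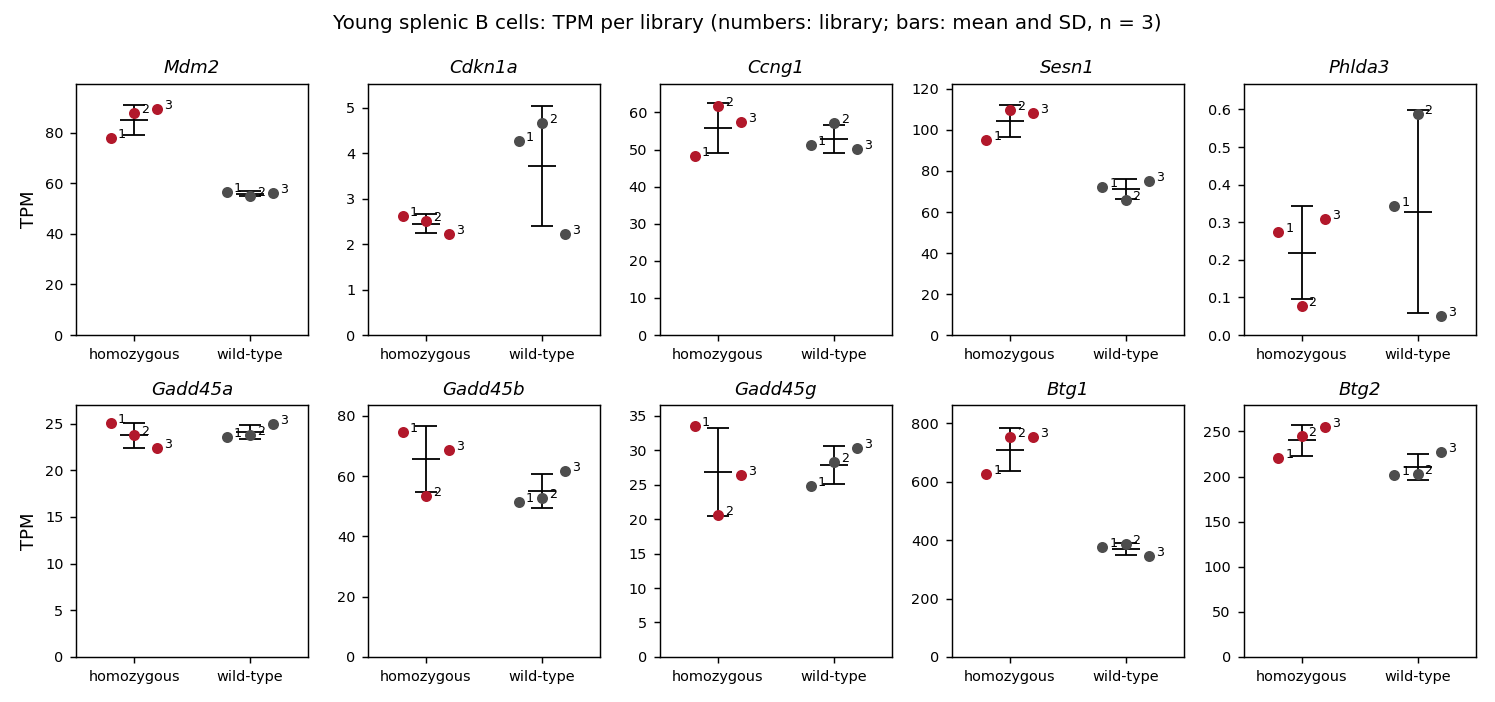
TPM of the 10 members in the young libraries, homozygous left of wild-type, with numbers for libraries and bars for the mean and SD (n = 3 each); each panel has its own axis from 0. Mdm2, Sesn1 and Btg1 show no overlap between the groups, and the Cdkn1a points of wild-type libraries 1 and 2 stand at 4.26 and 4.67 TPM, with the other 4 libraries at or below 2.62 TPM.

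Other genes of the same pathways changed in both directions in young homozygous cells. The lists were chosen with earlier results known. Of 11 tested genes for p53 and its regulators 8 were higher and 0 lower, with a median log2 change of 0.46, where 38.4% of all genes were higher and 12.6% lower and the median of all genes was 0.18. The counts of the lists that follow stand against the same shares. Mdm4, the MDM2 relative that blocks p53 activity, had 176, 216 and 236 TPM in homozygous libraries, against 101, 83.2 and 99.0 TPM in wild-type libraries. That is a larger difference than that of Mdm2, at log2 1.14 (adjusted p = 0.000319). Trp53 itself averaged 158 ± 10.5 TPM in homozygous libraries, against 128 ± 15.2 TPM in wild-type ones (log2 change 0.31, adjusted p = 0.0291), and the deubiquitinase Usp7, which stabilises p53 and MDM2, rose by 0.77 (adjusted p = 0.000646). Trp53 is named here outside the rule for named genes because it encodes the factor in question. The count of 8 became 5 without wild-type library 1, wild-type library 2, homozygous library 2 or homozygous library 3, and 5 on the median-ratio scale.

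Among 27 other p53 targets tested, 16 were higher and 3 lower, with a median log2 change of 0.39. The kinase gene Plk2 had 40.7, 34.5 and 33.6 TPM in homozygous libraries, against 6.89, 5.73 and 6.57 TPM in wild-type libraries. Pmaip1, which encodes the apoptosis activator NOXA, had 124, 112 and 104 TPM in homozygous libraries, against 21.1, 24.1 and 26.9 TPM in wild-type libraries. Both differences were far wider than the spread within groups (log2 changes 2.33 and 2.20, adjusted p = 4.57e-06 for each), and both genes are also induced by stimuli other than p53. The nuclease gene Aen rose as well, by 0.81 (adjusted p = 0.000296). In the other direction Rps27l, a ribosomal protein gene and p53 target, had 65.8, 72.9 and 61.6 TPM in homozygous libraries, against 171, 177 and 146 TPM in wild-type libraries. Its log2 change was -1.29 (adjusted p = 7.82e-05), while the small decreases of the death receptor gene Fas (-0.39, adjusted p = 0.0325) and of Dcxr (-0.36, adjusted p = 0.0423) were each lost in 4 of 6 fits that left out a library. The 3 lower genes became 1 without wild-type library 1, wild-type library 2 or homozygous library 2, and 6 on the median-ratio scale, and with wild-type library 3 as the only control 7 were higher and 1 lower.

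The wider BTG and TOB family with CCR4-NOT deadenylases, the machinery that Btg1 and Btg2 act through, had 7 of 8 tested genes higher and 0 lower. The deadenylase genes Cnot7 and Cnot6 rose by 0.68 (adjusted p = 0.000513) and 0.67 (0.000976), and Tob2 by 0.60 (0.000574). Of 10 FOXO factors and quiescence genes 8 were higher and 0 lower. Klf2, a factor of resting lymphocytes, averaged 538 ± 14.0 TPM in homozygous libraries, against 206 ± 13.2 TPM in wild-type ones (SD, n = 3 each, log2 change 1.38, adjusted p = 1.44e-05). Foxo1 rose by 0.82 (adjusted p = 0.00039) and the sestrin gene Sesn3 by 0.75 (adjusted p = 0.00145). The partners of GADD45 proteins were split, with 3 of 9 higher (Map2k7, Parp1 and Map3k4), a share under the 38.4% of all genes, and 2 lower, the mitotic genes Ccnb1 (-0.85, adjusted p = 0.00361) and Cdk1 (-0.48, adjusted p = 0.0251). Cdk1 was not called without wild-type library 1, homozygous library 2 or homozygous library 3, the count of 2 was 1 in each of these fits, and with wild-type library 3 as the only control Map3k4, Ccnb1 and Cdk1 were not called. Of 10 proliferation genes 0 were higher and 2 were lower, Ccnb2 (-0.47, adjusted p = 0.00761) and Tyms (-0.61, adjusted p = 0.037). This count was 1 without wild-type library 1 or 2 or homozygous library 1 or 3, 5 on the median-ratio scale, and 0 with wild-type library 3 as the only control.

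The immediate early and heat shock sets, which respond to stimulation and to handling of cells, were also higher in young homozygous cells. Their median log2 changes were 1.98 and 1.58, against 0.19 for the members and 0.18 for all genes. Immediate early genes were higher for 14 of 15 and heat shock genes for 7 of 8, with summed levels of 5440 to 5821 TPM in homozygous libraries, against 1564 to 2033 TPM in wild-type ones for the first set and 4631 to 4934 TPM in homozygous libraries, against 1772 to 2098 TPM in wild-type ones for the second. In the same comparison 5 of 10 myeloid and 3 of 8 T and NK cell markers were lower, with summed myeloid levels of 156 to 395 TPM in homozygous libraries, against 1363 to 5150 TPM in wild-type ones. The part of these sets in the changes of Mdm2, Sesn1 and Btg1 was not tested.

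**Figure D2:**
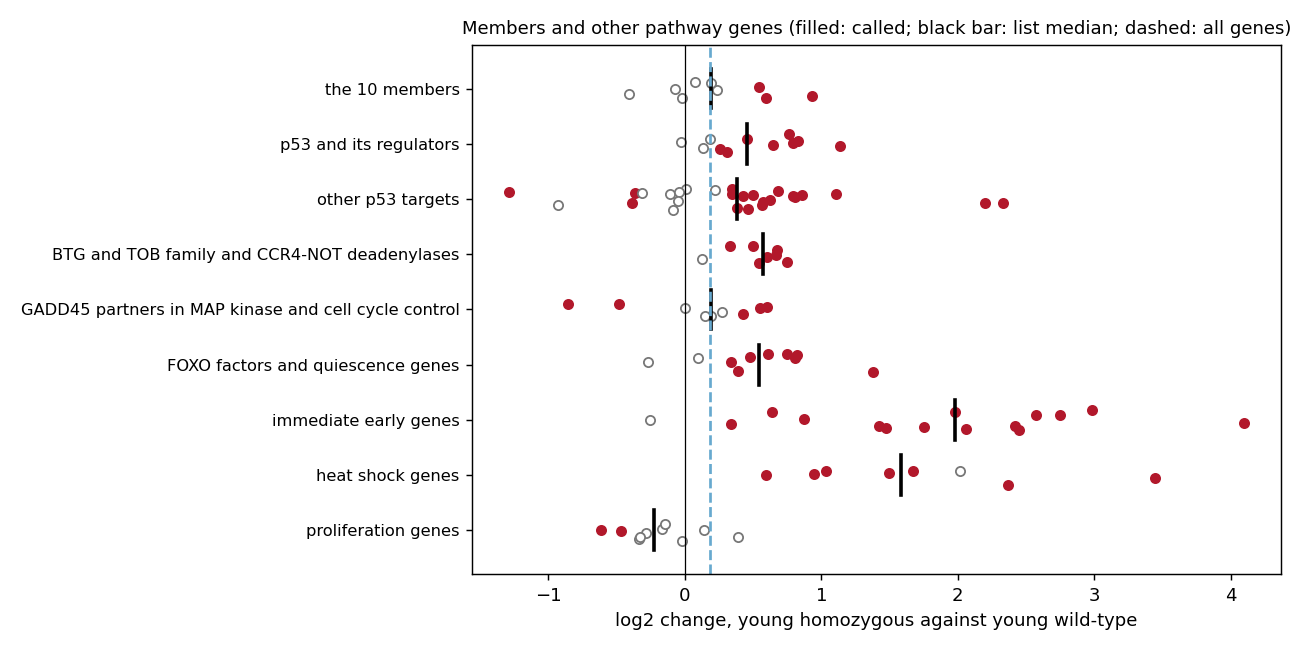
Log2 change of each tested gene, young homozygous against young wild-type, for the members and 8 other gene lists (filled points, called at adjusted p under 0.05; black bars, list medians; dashed line, median of all genes at 0.18). The member median of 0.19 lies on the line for all genes, and the immediate early genes lie farthest to the right, with a median of 1.98.

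In aged mice the members varied far more between libraries of a group, and 0 of 10 passed the test in CLL cells against wild-type B cells in either direction, against a background of 3.54% of all 21202 genes called. At an unadjusted p under 0.05 there were 2 members (Mdm2 and Btg1) and 9776 genes, and the members' median log2 change of 0.40 was below the 0.93 of all genes. The genes tested include many at the level of the olfactory receptor background. After subtraction of the olfactory receptor median of each library 48 genes were called higher, in place of 623. The part of this background in the median of all genes was not tested. Mdm2 was the 1 member whose groups did not overlap, against 31.5% of all genes in either direction, and it was lower in CLL cells. Its level was 86.3, 99.3, 101, 82.3 and 89.3 TPM in CLL libraries 1, 2, 4, 5 and 6, against 115, 239 and 132 TPM in wild-type libraries 1 to 3. All 5 CLL libraries lay below all 3 wild-type libraries, which holds for 2.55% of all genes in this direction. The log2 change was -0.74 (SE 0.32) with an adjusted p of 0.0728, and without wild-type library 2, the highest, it was -0.43 (adjusted p = 0.352). Over the leave-one-out fits and the alternatives its adjusted p ran from 0.0467, in a fit over all 3 aged groups, to 0.352.

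Btg1 had 977, 767, 1359, 1498 and 826 TPM in CLL libraries 1, 2, 4, 5 and 6, against 539, 951 and 518 TPM in wild-type libraries 1 to 3. Wild-type library 2 lay inside the CLL range and the other wild-type libraries lay below it. The log2 change was 0.70 (SE 0.30, adjusted p = 0.0718), and without wild-type library 2 Btg1 was called higher (0.98, adjusted p = 0.0339). Btg2 spread over a wide range within CLL cells, with 1236, 2954, 2549, 570 and 361 TPM in libraries 1, 2, 4, 5 and 6, against 634, 1214 and 607 TPM in wild-type libraries. The heterozygous libraries 2 and 4 were the highest and the homozygous library 6 the lowest (log2 change 0.55, 95% CI -1.38 to 2.49, adjusted p = 0.637).

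Sesn1 had 152, 49.6, 145, 175 and 77.1 TPM in CLL libraries 1, 2, 4, 5 and 6, against 226, 51.5 and 229 TPM in wild-type libraries 1 to 3. Here wild-type library 2 was the low one, and all CLL libraries lay below wild-type libraries 1 and 3. The log2 change was -0.36 (adjusted p = 0.68) with all libraries and -1.07 (adjusted p = 0.0363, called lower) without wild-type library 2. Ccng1 averaged 155 ± 34.4 TPM in CLL cells and 178 ± 34.3 TPM in wild-type cells (SD, n = 5 and 3, log2 change -0.21, adjusted p = 0.623).

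Cdkn1a had 10.3, 21.3, 3.52, 6.21 and 7.45 TPM in CLL libraries 1, 2, 4, 5 and 6, against 1.30, 27.2 and 2.59 TPM in wild-type libraries 1 to 3. Phlda3 had 1.65, 5.36, 0.972, 3.32 and 7.71 TPM in the CLL libraries, against 0, 12.2 and 0.398 TPM in the wild-type libraries. Both genes were highest in wild-type library 2 and neither was called (log2 changes 0.59 and 0.65, adjusted p = 0.531 and 0.507). In CLL cells Phlda3 did not exceed the 95th percentile of olfactory receptor genes of its own library in any of 5 libraries, and Cdkn1a did not in libraries 5 and 6, so these values cannot be told apart from the background there. The Gadd45 genes overlapped between CLL and wild-type cells, and Gadd45g in CLL library 4 and all 3 of them in CLL library 6 also lay within that background. Gadd45a had 32.3, 13.9, 6.82, 32.2 and 11.6 TPM in CLL libraries 1, 2, 4, 5 and 6, against a mean of 10.7 ± 3.24 TPM in wild-type cells (SD, n = 3, log2 change 0.62, adjusted p = 0.315). Gadd45b averaged 33.9 ± 16.5 TPM in CLL cells and 26.2 ± 6.38 TPM in wild-type cells (0.24, adjusted p = 0.667). Gadd45g averaged 18.2 ± 13.0 TPM in CLL cells and 23.1 ± 7.84 TPM in wild-type cells (-0.69, adjusted p = 0.494).

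**Figure D3:**
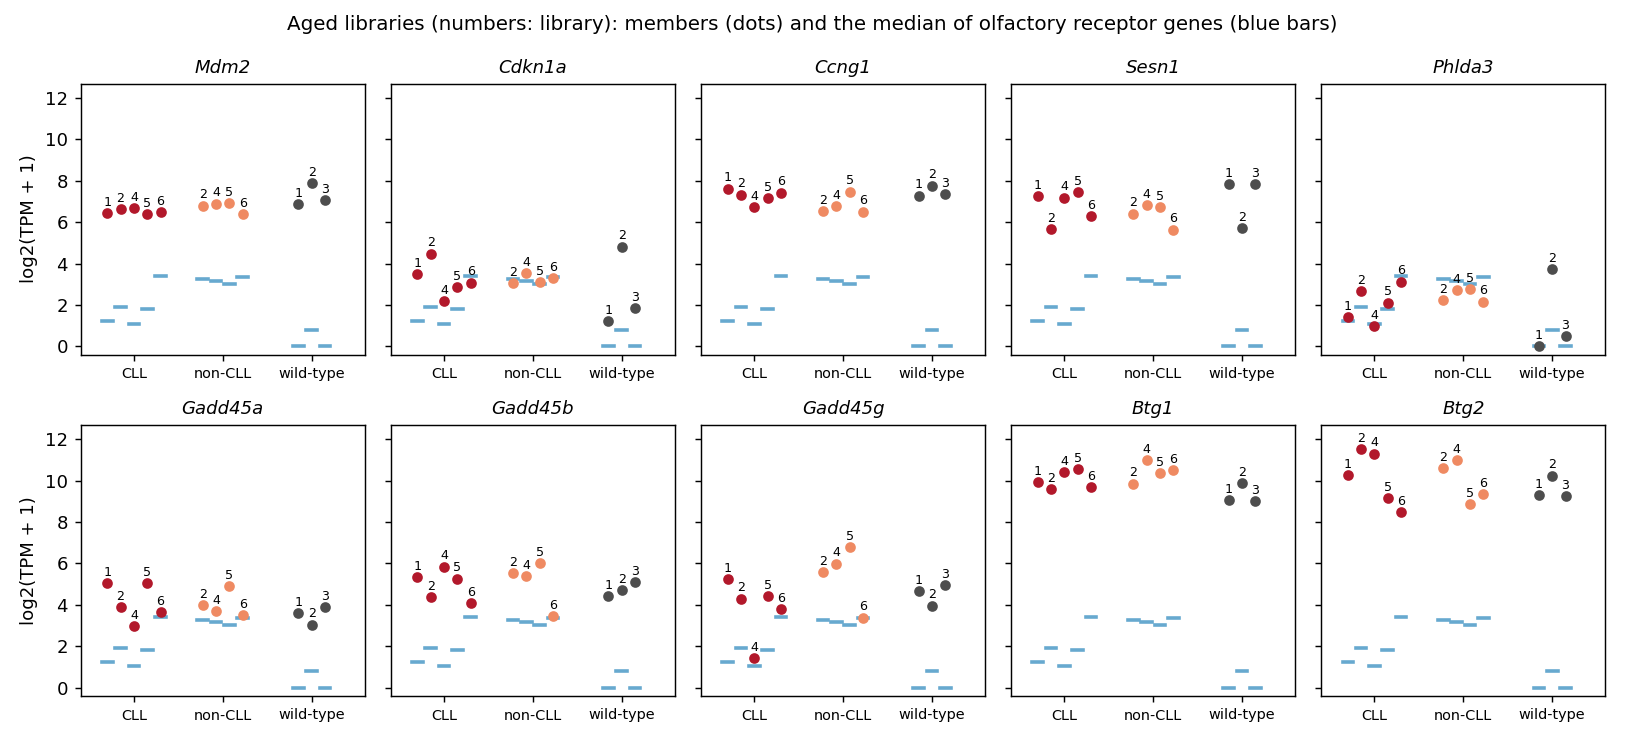
Level of each member on the log2(TPM + 1) scale in CLL, non-CLL and wild-type libraries (dots, with library numbers), over the median of olfactory receptor genes in the same library (blue bars). Cdkn1a and Phlda3 lie on or near the bars in non-CLL libraries, and wild-type library 2 is the highest wild-type dot for Mdm2, Cdkn1a, Ccng1, Phlda3, Btg1 and Btg2.

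Aged wild-type library 2 stood apart from the other wild-type libraries. It was the highest of the 3 wild-type libraries for 6 of 10 members (60.0%, against 48.1% of 15048 genes with at least 1 TPM in 1 of them) and the lowest for Sesn1, Gadd45a and Gadd45g (30.0%, against 33.2% of all genes). It lay at 2-fold or more over both others for 2 members, Cdkn1a and Phlda3 (20.0%, against 28.0% of all genes), so these shares are near those of all genes. Of 29 other p53 targets 19 were highest there (65.5%), 12 of them at 2-fold or more over both other libraries (41.4%). Proliferation genes were highest there for 10 of 10, immediate early genes for 11 of 15 and plasmacytoid dendritic cell markers for 4 of 4, whereas FOXO factors and quiescence genes were lowest there for 8 of 10 and B cell markers for 6 of 8. The Y-linked Ddx3y, at 17.4 TPM, was found in it and at most at 0.136 TPM in the other aged libraries. Xist was at 38.1 to 70.4 TPM in all 3 aged wild-type libraries, so library 2 held RNA of both genes. The part of other cell types, of cycling cells or of sex in the members' levels of this library was not tested.

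Against the non-CLL B cells of the same mice, 0 of 10 members were called in CLL cells, against a background of 5.77% of 22316 genes. At an unadjusted p under 0.05 there were 0 members and 8794 genes, and the median log2 change was -0.07 for the members and -0.77 for all genes. After subtraction of the olfactory receptor median of each library 174 genes were called lower, in place of 1121. Gadd45g had the largest difference among the members. Its level was 37.3, 18.8, 1.70, 20.7 and 12.8 TPM in CLL libraries 1, 2, 4, 5 and 6, against 46.7, 62.7, 110 and 9.44 TPM in non-CLL libraries 2, 4, 5 and 6. It was lower in CLL cells in mice 2, 4 and 5 and higher in mouse 6. The CLL value of mouse 4 and both values of mouse 6 lay within the olfactory receptor background. The log2 change was -1.59 (SE 0.94, adjusted p = 0.234), and -0.99 (adjusted p = 0.345) without CLL library 4.

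The other members were mixed within mice. Mdm2 was lower in CLL cells in 3 of 4 mice, with log2 differences between -0.54 and 0.10, and its mean was 91.7 ± 8.18 TPM in CLL and 108 ± 17.0 TPM in non-CLL cells (SD, n = 5 and 4). Sesn1 was higher in CLL cells in 3 of 4 mice (-0.75 to 0.74), and so was Btg2 (-0.84 to 0.92). Btg1 was lower in CLL cells in 3 of 4 mice (-0.81 to 0.17). Btg2 levels of the non-CLL libraries 2, 4, 5 and 6 were 1560, 2025, 470 and 645 TPM, so that libraries 2 and 4 were the high ones in both cell kinds. Ccng1 averaged 155 ± 34.4 TPM in CLL and 118 ± 40.6 TPM in non-CLL cells (log2 change 0.42, adjusted p = 0.248) and was higher in CLL cells in 2 of 4 mice. Markers of other cells were lower in CLL than in non-CLL cells for 4 of 8 T and NK cell genes and 3 of 4 plasmacytoid dendritic cell genes, with summed levels of 21.0 to 375 TPM in CLL and 240 to 930 TPM in non-CLL libraries for the T and NK cell genes, and their part in the members' values was not tested. The fit with the mouse number as a block called 0 members, and 667 genes lower in place of 1121.

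**Figure D4:**
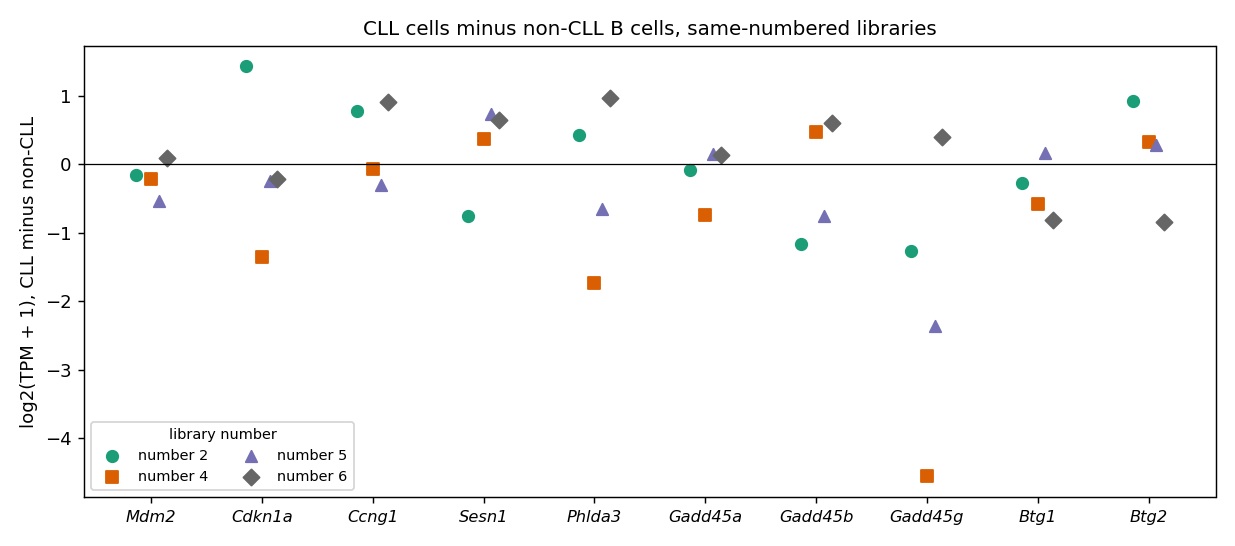
Difference of log2(TPM + 1) between CLL and non-CLL libraries of the same number, per member (4 pairs, marked by symbol). Gadd45g runs from -4.56 to 0.40, while the Mdm2 differences stay within -0.54 and 0.10.

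In non-CLL B cells against wild-type B cells 1 of 10 members, Btg1, was called higher and 0 lower, against backgrounds of 55.8% of 22150 genes called higher and 1.48% called lower. The olfactory receptor median was also higher in every non-CLL library than in every wild-type library. After its subtraction 31 genes were called higher, in place of 12353, and with a minimum of 20 TPM it was 68. The share of 55.8% therefore holds only without these 2 settings. The median log2 change was 0.44 for the members and 1.65 for all genes. Btg1 had 930, 2035, 1333 and 1451 TPM in non-CLL libraries 2, 4, 5 and 6, against 539, 951 and 518 TPM in wild-type libraries 1 to 3. Non-CLL library 2 lay just below wild-type library 2 and every other non-CLL library lay above all wild-type libraries. The log2 change was 1.10 (SE 0.30, adjusted p = 0.00874). It kept its size but missed the threshold with a minimum of 20 TPM (adjusted p = 0.132) and after subtraction of the olfactory receptor median (adjusted p = 0.0838). Over the leave-one-out fits its adjusted p ran from 0.00251 to 0.0457.

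Sesn1 had 84.3, 112, 105 and 48.9 TPM in non-CLL libraries 2, 4, 5 and 6, against 226, 51.5 and 229 TPM in wild-type libraries, and was called lower when wild-type library 2 was left out (-1.44, adjusted p = 0.00692, against -0.73 and 0.277 with it). Mdm2 had 111, 118, 120 and 83.4 TPM in non-CLL libraries, against 115, 239 and 132 TPM in wild-type libraries (log2 change -0.52, adjusted p = 0.152). Ccng1 had 92.8, 110, 177 and 90.6 TPM in non-CLL libraries, against 156, 218 and 162 TPM in wild-type libraries. Non-CLL library 5 was the one that reached the wild-type range, and Ccng1 was called lower without it (-0.85, adjusted p = 0.0126, against -0.64 and 0.0754 with it).

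Cdkn1a and Phlda3 stayed within the olfactory receptor background in all 4 non-CLL libraries, at 7.27 to 10.5 TPM and 3.48 to 5.77 TPM. Without wild-type library 2 both were called higher (1.72 with adjusted p = 0.00211 for Cdkn1a, 2.23 with adjusted p = 0.000748 for Phlda3), and since both lie within the background these differences cannot be told apart from it. Gadd45b and Gadd45g were called higher when non-CLL library 6 was left out (0.91, adjusted p = 0.0236, and 1.59, adjusted p = 0.0022), against 0.36 and 0.91 with it. Gadd45b had 45.8, 40.5, 63.7 and 10.1 TPM in non-CLL libraries 2, 4, 5 and 6, against 20.4, 25.3 and 33.1 TPM in wild-type libraries, so that library 6 was the low one, and all 3 Gadd45 genes lay within the olfactory receptor background in it. Gadd45a averaged 16.6 ± 8.51 TPM in non-CLL cells and 10.7 ± 3.24 TPM in wild-type cells (log2 change 0.52, adjusted p = 0.309), and Btg2 averaged 1175 ± 741 TPM in non-CLL cells and 818 ± 343 TPM in wild-type cells (0.35, adjusted p = 0.603).

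**Figure D5:**
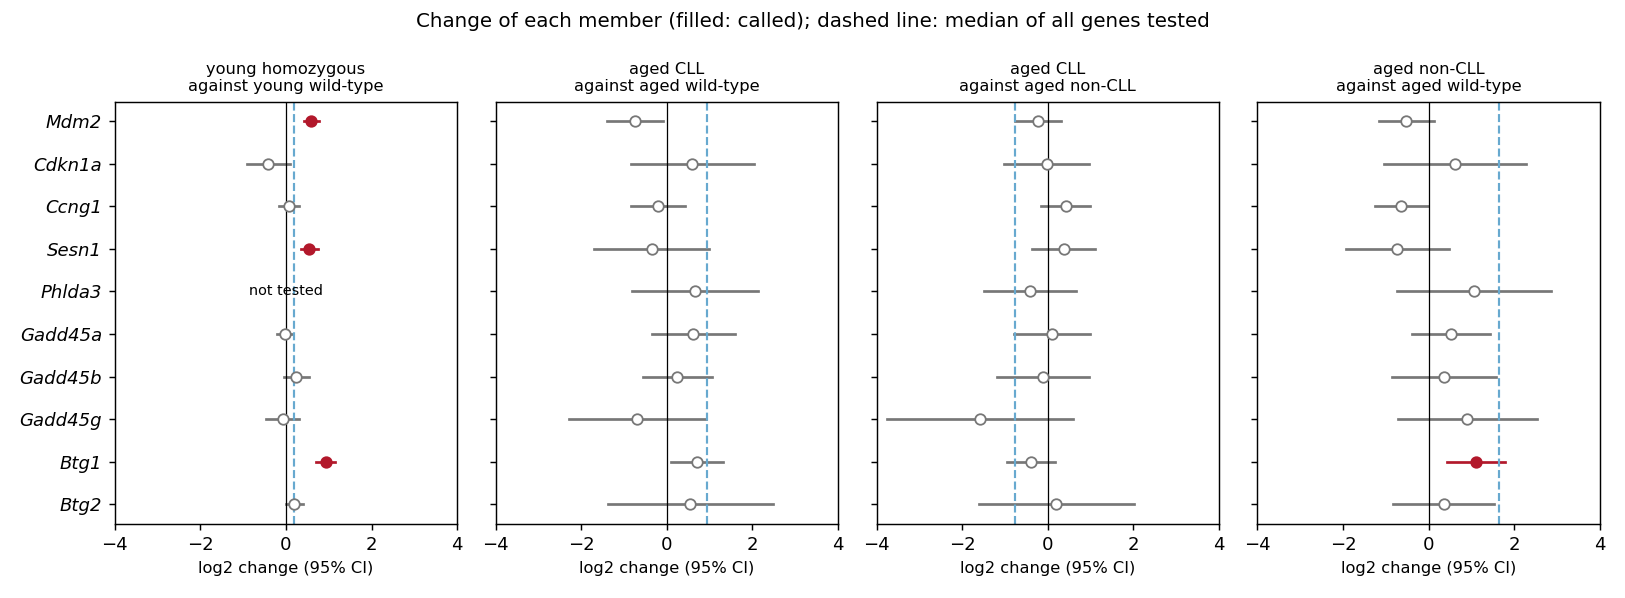
Log2 change with 95% CI of each member in the 4 comparisons (filled, called; dashed line, median of all genes tested). Mdm2, Sesn1 and Btg1 are filled in young cells and Btg1 in non-CLL cells against wild-type, and the aged intervals are wider than the young ones.

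Among the other pathway genes in aged cells, Fas, the death receptor gene and p53 target, stood out in CLL cells. It had 5.80, 8.73, 2.94, 5.86 and 17.5 TPM in CLL libraries 1, 2, 4, 5 and 6, against 115, 43.0, 113 and 69.4 TPM in non-CLL libraries 2, 4, 5 and 6. The groups were far apart, with a log2 change of -3.32 (adjusted p = 1.83e-05), and the call was kept in 9 of 9 leave-one-out fits and in all other settings run. In CLL libraries 5 and 6 Fas lay within the olfactory receptor background (95th percentiles of 6.48 and 18.0 TPM). Summed T and NK cell markers were 21.0 to 375 TPM in CLL and 240 to 930 TPM in non-CLL libraries. The part of such cells in the Fas difference was not tested. Against wild-type cells (13.7, 147 and 43.6 TPM in libraries 1 to 3) Fas was also called lower in CLL cells (-2.52, adjusted p = 0.0479), with CLL library 6 above wild-type library 1. This call was lost without CLL library 1 or CLL library 5, with a pseudocount of 5, with no filter, with median-ratio rescaling and without the variance trend. Fas was the 1 of 30 other p53 targets called in each of these comparisons. Of all genes 5.77% were called against non-CLL cells and 3.54% against wild-type cells, so the count is not above these shares. Without CLL library 6, the CLL library with high background, 9 of the 30 were called lower against non-CLL cells. That fit called 10736 of all genes lower, in place of 1121 with all libraries. Without CLL library 4 it was 2 of the 30, in a fit that called 244 of all genes lower. Against wild-type cells leaving out CLL library 6 or wild-type library 2 gave 2 called lower, and leaving out CLL library 1, 4 or 6 or wild-type library 2 gave 1 to 3 called higher in place of 0. The fits with 1 to 3 called higher had 3742 to 7744 of all genes called higher, in place of 623.

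Of 12 genes for p53 and its regulators 0 were called by limma in CLL cells in either comparison (2 at an unadjusted p under 0.05 against wild-type and 0 against non-CLL cells). This count and those of the lists that follow stand against 3.54% of all genes called against wild-type and 5.77% against non-CLL cells. Leaving out CLL library 6 against non-CLL cells gave 2 called lower, in the fit with 10736 of all genes called lower. Against wild-type cells at most 1 was called in each direction when 1 library was left out. The quiescence gene Cdkn1b, which encodes the p27 inhibitor of cyclin-dependent kinases, was the 1 of 10 FOXO and quiescence genes called in CLL cells against wild-type cells. It had 55.3, 55.3, 51.6, 74.1 and 77.4 TPM in CLL libraries 1, 2, 4, 5 and 6, against 51.1, 11.7 and 20.7 TPM in wild-type libraries 1 to 3. All CLL libraries lay above the wild-type ones (log2 change 1.37, adjusted p = 0.0339), and the call was lost without CLL library 5, wild-type library 2 or wild-type library 3, with a pseudocount of 5, no filter, a minimum of 20 TPM or background subtraction, and without the variance trend. Without wild-type library 2, 2 genes of this list were called lower in place of 0. In the BTG and TOB list Btg4 was called lower in CLL than in non-CLL cells, at 3.68 ± 3.95 against 12.8 ± 2.15 TPM (SD, n = 5 and 4), levels like those of the olfactory receptor background, and the call was lost in 8 of 9 leave-one-out fits. Immediate early genes were called higher for 2 of 15 in CLL against wild-type cells (Dusp1 and Egr1), for 4 to 7 without CLL library 1, 2, 4 or 6 or wild-type library 2 or 3, and lower for 2 of 15 in CLL against non-CLL cells (Junb and Ier2). All 4 calls were lost without the variance trend, and those of Dusp1 and Egr1 also with background subtraction.

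In non-CLL against wild-type cells 7 of 30 other p53 targets were called higher and 0 lower, a smaller share than the 55.8% of all genes called higher. That share was not kept after background subtraction, which left 31 genes called higher. By adjusted p they were led by Eda2r, Dram1 and Tnfrsf10b, each at a mean of 6.71 to 10.1 TPM in non-CLL cells, which is near the olfactory receptor median. After background subtraction Eda2r was not called, and Dram1 and Tnfrsf10b were too low to pass the filter of 1 TPM. Their medians were 6.92 and 7.01 TPM in non-CLL cells before subtraction. Without wild-type library 2 the count was 15 of 30, in a fit that called 11995 of all genes higher (12353 with all libraries). Of 12 genes for p53 and its regulators 1 was called higher, Cop1, a ubiquitin ligase for p53, at 16.0 ± 0.877 TPM in non-CLL and 8.46 ± 1.85 TPM in wild-type cells (SD, n = 4 and 3, log2 change 0.86, adjusted p = 0.0371), a call lost in 6 of 7 leave-one-out fits. The Cop1 call was also lost after background subtraction and in 1 fit over the 3 aged groups. Heat shock and proliferation genes had 0 called of 8 and 0 of 10 in each of the 3 aged comparisons by limma, with at most 3 and 1 of them at an unadjusted p under 0.05. With 1 library left out, up to 2 heat shock genes and 1 proliferation gene were called in 1 direction. Tob1, an antiproliferative relative of Btg1, lay above that background, at 48.1 ± 10.4 TPM in non-CLL and 24.3 ± 1.36 TPM in wild-type cells (SD, n = 4 and 3, log2 change 0.94, adjusted p = 0.0104). The p38 kinase kinase genes moved apart, with Map2k6 higher (1.01, adjusted p = 0.0117) and Map2k3 lower (-0.80, adjusted p = 0.00998). Map2k6 was not called without wild-type library 3. Cdkn1b (1.40, adjusted p = 0.0137) and Klf2 (1.03, adjusted p = 0.0146) were called higher, and neither was called without wild-type library 2. Tob1, Map2k6, Map2k3, Cdkn1b and Klf2 all missed the threshold after background subtraction. Immediate early genes were higher for 11 of 15 (7 without wild-type library 3). Markers of other cells were called higher for 6 of 10 myeloid, 6 of 8 T and NK cell and 4 of 4 plasmacytoid dendritic cell genes. The myeloid share is near the 55.8% of all genes. Summed levels overlapped between non-CLL and wild-type libraries in each set. They were 179 to 377 against 37.1 to 293 TPM for myeloid and 240 to 930 against 3.85 to 631 TPM for T and NK cell genes. For plasmacytoid dendritic cell genes they were 325 to 1514 TPM in non-CLL and 76.6 to 387 TPM in wild-type libraries. The part of these other cells in the members' values was not tested.

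The genes whose profile was most like that of 3 members were taken by Pearson's r of log2(TPM + 1) among genes with a mean of at least 20 TPM, as a description over libraries that share a table. Over the 12 aged libraries and 6782 genes, Btg1 was most like Polg2 (0.888), Kptn (0.869) and C030046I01Rik (0.849), Cdkn1a like Glipr1 (0.857), Pgm2 (0.855) and Pxn (0.844), and Gadd45b like Snora64 (0.853), Rab11b (0.838) and Sars (0.819). Over the 6 young libraries and 6288 genes, Btg1 was most like Morf4l2, Egr1 and Tagap1 (0.998 each), Cdkn1a like Ighv1-19 (0.995), Cks2 (0.992) and Ighv1-80 (0.974), and Gadd45b like Taz (0.983), Dph3 (0.978) and Naxd (0.976). With 6 libraries in 2 groups, such values are reached by many genes.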

How the data were processed

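RNA-seq of splenic B cells gave 18 libraries in 5 groups, and 12 chromatin samples were not analysed here. The authors deposited TPM, named as such in the labels of the aged samples, in 1 table for young and 1 for aged mice, and the TPM of each library add up to 1000000. The submitters' processing notes name mm10, MACS2 2.2.0, STAR 2.4.0.1 and Bowtie2 2.3.4.1 without saying which step used which. How TPM were quantified, with which annotation and strand setting, is not given in the sources used here. Read numbers cannot be had from TPM, so depth is unknown and values carry no counting interval.

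Left out were 25 aged and 26 young entries whose names had become dates, and 887 young entries with no gene name. Each comparison was made within 1 table with limma 3.58.1 in R 4.3.3 (variance trend, robust, two-sided) on log2(TPM + 1), for genes that reached 1 TPM in a number of libraries equal to the size of the smaller group, with Benjamini-Hochberg adjustment over all genes. The aged comparisons share libraries. Fold values are on this scale. The procedure was tested on simulated data.

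Members and gene lists were chosen with earlier results of these data known. Named were all members, at most 3 called genes per list and direction with the lowest adjusted p, and the 3 genes most like Cdkn1a, Gadd45b and Btg1. CLL and non-CLL cells of one number come from the same mouse per the design text. Their deviations from group means correlated at -0.023, 0.0182, 0.105 and 0.124, and those of different numbers at -0.2 to 0.145. The values of same-numbered libraries thus lay within the range of the others. Alternatives were other pseudocounts (0.1 and 5), no filter or a minimum of 20 TPM, median-ratio rescaling, subtraction of the olfactory receptor median of each library, no variance trend and no robust estimation, library weights, a replicate block, 1 fit over the aged groups, and leaving out libraries. Promoters and coordinates are from RefSeq, GRCm38.p6, where all 10 members matched by symbol.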

Additional observations from a re-analysis of the deposited data

Results flagged for a closer look

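Mdm2 ran in opposite directions in the young homozygous and the aged CLL comparison, which differ in age, in leukaemia and in genotype. Every young homozygous library (78.0 to 89.1 TPM) lay above every young wild-type library (54.8 to 56.7 TPM), with a log2 change of 0.593, and every aged CLL library (82.3 to 101 TPM) lay below every aged wild-type library (115 to 239 TPM), with a log2 change of -0.7439. The difference between these changes was not tested, since the tables were made separately, and the aged change was not called (adjusted p = 0.0728) and was -0.43 (adjusted p = 0.352) without aged wild-type library 2. The young libraries are all homozygous on the mutant side while 4 of 5 CLL libraries are heterozygous. Among 20 member values by group with 4 or 5 libraries, 0 had a library far enough from the others by Dixon's criterion; chance flags about 1 in 20 such groups.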

How the results depend on the processing

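In young cells, leaving out 1 library at a time gave 3469 to 4984 genes higher and 1042 to 1876 lower, with 3 to 4 members higher and 0 to 1 lower. Genes higher and lower numbered 5 and 5 with no filter, 3113 and 889 at 20 TPM, 3008 and 2720 with median-ratio rescaling, and 2116 and 742 without wild-type libraries 1 and 2; no filter called 0 members, and library weights 1 lower (Cdkn1a). For CLL against wild-type cells, leave-one-out gave 265 to 7744 higher, 80 to 516 lower, 0 to 1 member each way. Higher and lower genes numbered 8414 and 439 (pseudocount 0.1), 182 and 83 (pseudocount 5), 333 and 83 (no filter), 96 and 53 (20 TPM), 48 and 53 (background subtraction), 122 and 13 (no trend), 10971 and 1328 (library weights) and 6224 and 488 (1 fit over 3 aged groups); library weights called 3 members higher (Btg1, Cdkn1a, Phlda3) and the 1 fit 1 lower (Mdm2). For CLL against non-CLL cells, leave-one-out gave 70 to 382 higher, 233 to 10736 lower, and 0 members. Genes higher were 74 (pseudocount 0.1), 96 (20 TPM), 23 (no trend) and 499 (library weights); genes lower were 182, 136, 133 and 11206 in the same order, 174 with background subtraction, 3174 in 1 fit and 667 with the replicate block. Library weights called 1 member lower (Gadd45g). For non-CLL against wild-type cells, leave-one-out gave 11124 to 12571 higher, 142 to 561 lower, 1 to 3 members higher and 0 to 1 lower. Genes higher were 68 (20 TPM) and 31 (background subtraction); genes lower were 15 and 12 in these, 189 (median-ratio rescaling), 166 (no trend) and 1011 (library weights). Members higher were 0, 0 and 5, and lower 2, with 20 TPM, background subtraction and library weights.

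Uncalled log2 changes that turned sign were, in young cells, Ccng1 (-0.13) and Btg2 (-0.013) with median-ratio rescaling and Cdkn1a (0.10) without wild-type libraries 1 and 2. With background subtraction they were Cdkn1a (-0.29) and Gadd45b (-0.064) for CLL against wild-type, Cdkn1a (1.77) and Gadd45b (0.40) for CLL against non-CLL, and Cdkn1a (-2.05), Gadd45a (-0.76) and Gadd45b (-0.47) for non-CLL against wild-type. For CLL against non-CLL, Cdkn1a was 0.022 with a pseudocount of 5 and 0.22 with library weights, and Gadd45a -0.13 with the replicate block. Changes that turned sign when 1 library was left out spanned, in young cells, -0.0011 to 0.17 (Ccng1), -0.060 to 0.017 (Gadd45a) and -0.24 to 0.098 (Gadd45g). For CLL against wild-type they spanned -0.12 to 1.69 (Cdkn1a) and -0.047 to 1.82 (Phlda3). For CLL against non-CLL they spanned -0.34 to 0.24 (Cdkn1a), -0.13 to 0.39 (Gadd45a), -0.66 to 0.19 (Gadd45b) and -0.15 to 0.62 (Btg2), and for non-CLL against wild-type -0.093 to 1.72 (Cdkn1a). The cause was not tested. The block changed no member call in the young comparison, where same-numbered libraries correlated at -0.102, 0.242 and 0.316, and libraries of different numbers at -0.33 to 0.21. Depth is unknown, levels near the olfactory receptor median limit Cdkn1a and Phlda3, and the aged groups of 3 to 5 libraries leave wide intervals.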
